A study of Mus musculus with 5 samples.

Results

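Gas5, the lncRNA that was knocked down in these cells, belongs to a family of snoRNA host lncRNAs, and it was examined here together with 9 named SNHG genes: Snhg1, Snhg3, Snhg5, Snhg6, Snhg8, Snhg12, Snhg15, Snhg17 and Snhg20. These 10 genes were chosen by name out of the 55487 genes counted, and 9 of them had at least 1 read. Snhg3 had none. HT22 cells, an immortalized mouse line of hippocampal neuronal origin, were collected 48 h after transfection with siRNA at 10 nM, and poly(A)-selected RNA was sequenced. One GAS5 knock-down (KD) library was made with siRNA210, 2 with siRNA596 and 2 with NC siRNA (negative control siRNA by sample title and by the methods of the study, although another label field reads untreated).

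A snoRNA host gene carries small nucleolar RNAs (snoRNAs) inside its introns. When the transcript is spliced, each intron is trimmed to a snoRNA that joins proteins such as fibrillarin or dyskerin and guides chemical modification of ribosomal RNA, while the exons are joined into a lncRNA. Several of these host genes start transcription in a pyrimidine tract, the 5′TOP element shared with ribosomal protein genes, and the spliced RNA of several, Gas5 among them, is removed by nonsense-mediated decay on ribosomes. Gas5 was named for its accumulation in growth-arrested cells.

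The 5 libraries held 30660265 to 36492134 counts. The library labelled siRNA596 replicate 2 stood apart from the other 4 across the transcriptome, with 19244 genes with a count against 21866 to 22605. It also went against its label, because its Gas5 level was the highest of all 5. The authors' deposited mean expression values matched the mean of the other 4 libraries within 0.0977% for each of 15412 genes, and differed by up to 344.7% when all 5 were averaged. The KD comparison below held the same 4 libraries as the authors' values, siRNA210 replicate 1 and siRNA596 replicate 1 against the 2 NC libraries. Leaving out the library with the highest Gas5 level bears on the Gas5 test itself. The fold changes of the hosts are therefore also given with all 5 libraries. Of 9 neuronal markers, Nefl, Nefm, Snap25 and Dcx had no count in any library and Rbfox3 had 2 counts in 1 library, whereas Tubb3, Map2 and Eno2 had 497 to 3336 counts. The fibroblast list, led by the collagen genes Col1a1 and Col1a2, summed to 4956 to 5375 CPM in NC and 5110 to 5560 CPM in the 2 KD libraries, and 4011 CPM in the library labelled siRNA596 replicate 2. The 5 astrocyte markers summed to 31.9 to 50.8 CPM in NC, 25.4 to 32.1 CPM in the 2 KD libraries and 35.3 CPM in the library labelled siRNA596 replicate 2, and 1 of them (Aqp4) was at 0 throughout. Nearly all of that sum was Slc1a3, a glutamate transporter, with 1089 and 1922 counts in NC against 874 and 1120 in KD (log2 fold change -0.54, SE 0.21, unadjusted P = 0.029 and adjusted P = 0.967, edgeR). Its KD values overlapped those of NC. The 5 microglia and the 5 oligodendrocyte markers each summed to at most 3.36 CPM in any library, and of these 10 only Ptprc was at 0 throughout. The part of these levels in the results on the hosts was not tested.

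The Gas5 gene lies on chromosome 1 of GRCm38, at 161034422 to 161038539 on the plus strand, and its 25 annotated transcripts run from 346 to 2556 bases. Inside it 10 snoRNA genes are annotated, with Snord80 entered more than once at nearly the same position. The RT-qPCR primers used for Gas5, a pair named GAS5-E234 and a pair named GAS5-E456, are printed because they show which transcripts that assay reads, and gene-level read counts cover all of them. The capitals, absent from these lines, are kept for the start-site windows further on, and each primer is given 5′ to 3′.
GAS5-E234 forward: gtgggatctcacagccagttc
GAS5-E234 reverse: ctcgctctgttatccagcttc
GAS5-E456 forward: ggaggatgaaggcttacgagg
GAS5-E456 reverse: tttctggtcttctattctagcacat
Matched to the annotated transcripts, the GAS5-E234 pair found both its sites in 16 of 25, with products of 81 to 274 bases, and the GAS5-E456 pair in 10 of 25, with products of 80 to 273 bases. The sites of the first pair span chr1:161035787-161036238 and those of the second chr1:161035995-161036571, on GRCm38. Of the 4 primers, the GAS5-E234 forward primer and both GAS5-E456 primers crossed an exon junction, so that an unspliced transcript would not hold their sites as 1 run.

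**Figure D1:**
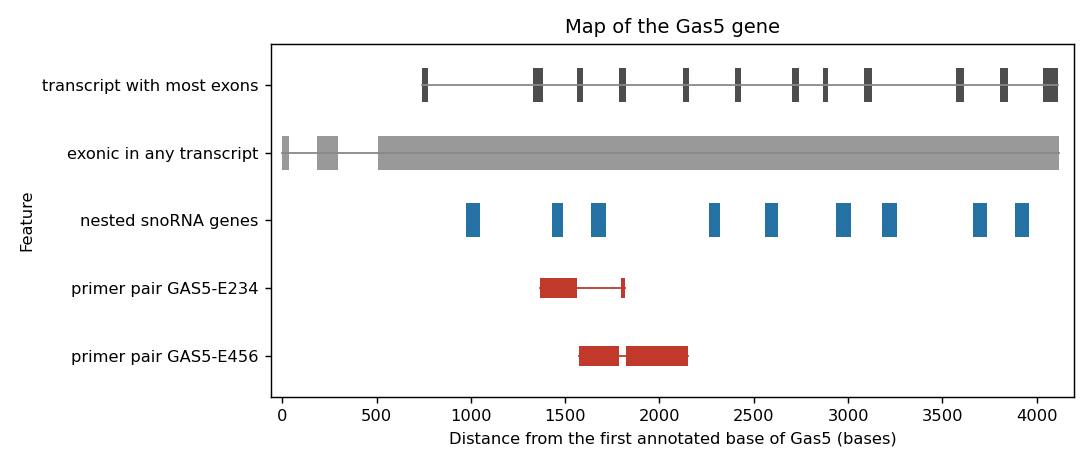
Map of the Gas5 gene on GRCm38, with the distance in bases from its first annotated base on the x axis. The rows show the 12 exons of the transcript with most exons, every base that is exonic in any of the 25 transcripts, the nested snoRNA genes, and the 2 primer pairs, drawn from the first to the last matched base with the introns that a primer crosses included; most intron bases, snoRNA genes included, are exonic in some retained-intron transcript.

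The start sites of the host genes are printed because a pyrimidine tract at the start is a sequence feature that the choice of members did not use. RefSeq (GRCm38.p6) start windows were found for 9 of the 10 genes, 11 starts in all, with no entry for Snhg6. A tract was defined as a C followed by at least 4 C or T bases, beginning within 5 bases of the annotated start on the transcribed strand. Each window below shows 20 bases on either side of the annotated start base, 5′ to 3′, and capitals mark the tract.
Gas5, downstream start, chr1:161035146-161035186, plus strand: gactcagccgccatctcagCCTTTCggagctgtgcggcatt
Snhg12, chr4:132308658-132308698, plus strand: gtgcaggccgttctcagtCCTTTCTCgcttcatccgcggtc
Snhg8, chr3:123508316-123508356, minus strand: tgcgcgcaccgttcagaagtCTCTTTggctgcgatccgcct
Snhg3, chr4:132353666-132353706, minus strand: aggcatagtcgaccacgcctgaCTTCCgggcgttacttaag
Gas5, upstream start, chr1:161034581-161034621, plus strand: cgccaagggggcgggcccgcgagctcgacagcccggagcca
Snhg1, chr19:8723467-8723507, plus strand: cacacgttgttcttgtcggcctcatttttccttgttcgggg
The first 4 windows hold a tract and the last 2 do not. A tract by this definition stood at 4 of the 11 starts, and at 18.35% of all 32851 starts in the same table. The match depends on where a start is annotated to the base, and a window without one says only that these letters are not in it.

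Gas5, the targeted gene, was lower in both KD libraries of the comparison than in both NC libraries, by a modest amount. It had 3178 counts in NC replicate 1, 2916 in NC replicate 2, 2134 with siRNA210 and 2357 with siRNA596 replicate 1. After TMM normalisation these were 90.4, 76.0, 59.7 and 65.9 CPM (counts scaled to a common library size), so the groups did not overlap, and the KD libraries held 71.7% and 79.2% of the NC mean. The mean was 62.8 ± 4.40 CPM (SD, n = 2) in KD and 83.2 ± 10.1 CPM (SD, n = 2) in NC. The log2 fold change, KD relative to NC, was -0.41 (SE 0.11, unadjusted P = 0.00377 and Benjamini-Hochberg adjusted P = 0.967 by the quasi-likelihood test of edgeR over 15867 genes). The change therefore did not pass the adjusted threshold of 0.05. Without siRNA210 replicate 1 it was -0.34, with an unadjusted P of 0.0513 (edgeR). A lower fold change than that of Gas5 was measured for 1213 genes, which are 7.65% of those tested. In bulk samples such as these, fewer cells carrying a transcript and less of it per cell cannot be told apart.

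The library labelled siRNA596 replicate 2 had 4727 Gas5 counts, or 179.0 CPM. That was 215.2% of the NC mean, above every other library, so adding it turned the Gas5 estimate positive, to a log2 fold change of 0.29 (SE 0.53, unadjusted P = 0.607, edgeR). Zbtb37, a zinc finger gene on the opposite strand whose span overlaps the first bases of Gas5 but whose exons share no base with Gas5 exons, had 1391 and 1442 counts in NC against 1230 and 1243 in the 2 KD libraries. It had 45 in the library labelled siRNA596 replicate 2.

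All 9 detected host genes passed the filter on low counts. Among them 1 (Gas5) had an unadjusted P under 0.05 and it was lower, where 3.3% of all genes tested had such a P and 1.55% were also lower. None of the 9 met the study's criteria of an unadjusted P under 0.05 and an absolute log2 fold change over 1, which 0.876% of all genes met. None of the 9 passed the adjusted threshold by edgeR, and neither did any other gene (0.0% of all genes; 523 of them had an unadjusted P under 0.05, and DESeq2 called 1 gene after adjustment, not a host). With all 5 libraries 0 of the 9 had an unadjusted P under 0.05, where 0.372% of all genes did.

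Snhg1, which hosts the most snoRNA genes after Gas5, had 1731 and 1589 counts in NC against 1579 and 1734 in KD. Its groups overlapped, and its log2 fold change was 0.03 (SE 0.11). Snhg12, with 5 nested snoRNA genes as annotated (Snora16a entered more than once), had 519 and 416 counts in NC against 478 and 444 in KD. Both KD values lay between the NC values, with a log2 fold change of 0.01 (SE 0.18).

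Snhg5, the host of Snord50a and Snord50b, had 777 and 752 counts in NC against 766 and 714 in KD, and its log2 fold change was -0.01 (SE 0.13). Snhg6, the host of Snord87, had 497 and 553 counts in NC against 590 and 471 in KD, with a log2 fold change of 0.05 (SE 0.15). In Snhg6 the highest and the lowest library were both KD libraries. Snhg8, the host of Snora24, had 630 and 522 counts in NC against 590 and 587 in KD, with a log2 fold change of 0.06 (SE 0.16).

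Snhg15, the host of Snora9, had 388 counts in each NC library and 348 and 400 in KD, with a log2 fold change of -0.02 (SE 0.16). Snhg20, which hosts a small Cajal body RNA, had 816 and 797 counts in NC against 891 and 786 in KD, with a log2 fold change of 0.09 (SE 0.13). For 6 of the 8 hosts other than Gas5, all but Snhg8 and Snhg17, siRNA210 and siRNA596 replicate 1 lay on opposite sides of the NC mean. Snhg17 was the nearest to Gas5, with 1443 and 1463 counts in NC against 1282 and 1276 in KD, so its groups did not overlap. Its log2 fold change was -0.15 (SE 0.10, unadjusted P = 0.177, edgeR), the smallest P of the 8, and it was -0.20 to -0.0956 on leaving out 1 of the 4 libraries.

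With all 5 libraries the fold changes of these 8 hosts were all above 0, and none had an unadjusted P under 0.05 by edgeR. They were 0.77 (SE 0.56) for Snhg1, 0.44 (SE 0.40) for Snhg5, 0.45 (SE 0.38) for Snhg6 and 0.98 (SE 0.66) for Snhg8. For Snhg12, Snhg15, Snhg17 and Snhg20 they were 0.42 (SE 0.40), 0.63 (SE 0.52), 0.07 (SE 0.26) and 0.72 (SE 0.50). The median log2 ratio of the 8 hosts to the NC mean was 1.24 in the library labelled siRNA596 replicate 2. It was 0.05 in siRNA210 replicate 1 and -0.02 in siRNA596 replicate 1. No share of all genes above 0 is given for the fit with 5 libraries.

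In the 4-library comparison the log2 fold changes of these 8 hosts ran from -0.15 to 0.09. Their median was 0.02, beside a median of -0.00230 over all genes. Of the 8 hosts 5 were above 0 and 3 below, where 7850 of all 15867 genes tested were above 0. Both KD libraries lay below both NC libraries for 2 of the 9 hosts, Gas5 and Snhg17, and for 16.2% of all genes tested. None of the 9 had both KD libraries above both NC libraries, as 16.7% of all genes did. The NC libraries differed from each other as well, by -0.44 (Snhg12) to 0.03 (Snhg6) on the log2 scale, replicate 2 relative to replicate 1.

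**Figure D2:**
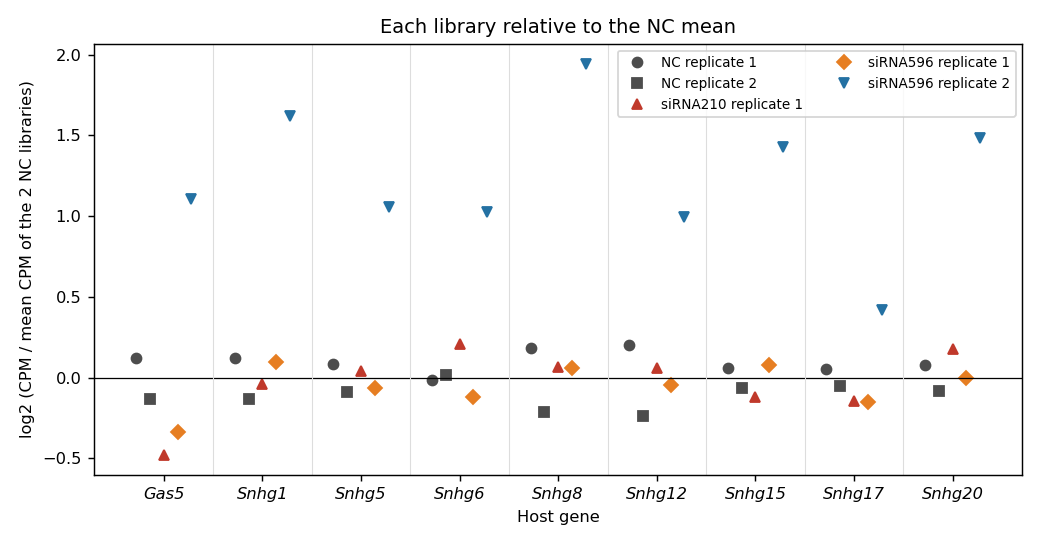
Log2 ratio of each library's CPM to the mean CPM of the 2 NC libraries (y axis) for each of the 9 detected hosts (x axis), 1 point per library. The triangles and diamonds of siRNA210 and siRNA596 replicate 1 lie at -0.48 and -0.34 for Gas5 and between -0.15 and 0.21 for the other hosts, and all points of the library labelled siRNA596 replicate 2 lie above 0.

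Snhg3, the host of Snora73a and Snora73b, was counted at 0 in every library, which allows up to 3 counts in each. Of its 986 exonic bases 86.3% are shared with exons of other genes, 29.8% on its own strand, with Rcc1 and Snora73a, and 71.5% on the opposite strand, with the lincRNA gene Gm17300. Rcc1, a nuclear exchange factor for Ran, had 2357 to 2893 counts. Neither the strand setting nor the handling of reads over 2 genes is given in the sources used here, so a count of 0 for Snhg3 does not separate absence of the RNA from reads that were not assigned. The shared part of the exons was 5.35% (Snhg17) to 20.9% (Snhg1) for the other 9, mostly with their own snoRNA genes, except in Snhg6, where Mcmdc2 shares it from the opposite strand.

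The snoRNAs themselves could not be followed. Inside the 10 hosts 34 snoRNA or scaRNA genes are annotated on the host's strand, with Snord80 and Snora16a each entered more than once. Of the 34, 33 had no count in any library. The exception was Snord87 in Snhg6, with 1 and 2 counts in NC, 6 with siRNA210, and 8 and 15 in the libraries labelled siRNA596 replicate 1 and replicate 2. Of the 34, 32 share exonic bases with a transcript of their host, and 1269 of all 1558 snoRNA and scaRNA genes in the table were also at 0. Poly(A) selection keeps few mature snoRNAs, which have no poly(A) tail, and whether that or the counting of shared bases set these zeros was not tested.

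Gas5 was the most abundant host per length in NC. Levels between genes were compared as FPKM (CPM per kilobase), first with the length of all bases exonic in any transcript and then with the median length of the annotated transcripts, since retained-intron transcripts make the first up to several times longer than a typical spliced RNA. By all exonic bases Gas5 stood at 22.1 FPKM (20.2 and 24.0 in the 2 NC libraries), followed by Snhg8 at 18.5 and Snhg1 at 15.3. Gas5 overlapped Snhg8, and Snhg8 overlapped Snhg1, in the range of the 2 NC libraries. Within each NC library, though, the order was Gas5, Snhg8, Snhg1 (24.03, 21.0 and 16.58 in replicate 1, 20.22, 15.95 and 13.95 in replicate 2).

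Snhg6 at 12.4 FPKM and Snhg5 at 12.0 came next and overlapped, then Snhg20 at 7.87 and Snhg15 at 7.78, which overlapped, then Snhg17 at 5.61 and Snhg12 at 5.33, which also overlapped. By median transcript length the level of Gas5 was 132.2 FPKM (120.8 and 143.6), and Snhg1, at 75.2 (68.8 and 81.7), was next. Gas5 and Snhg1 did not overlap on that scale, Snhg8 moved to the fifth place with 29.9 and Snhg17 to the third with 37.8, while Snhg12 stayed last with 14.0. Only the first and the last place were the same by both lengths.

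**Figure D3:**
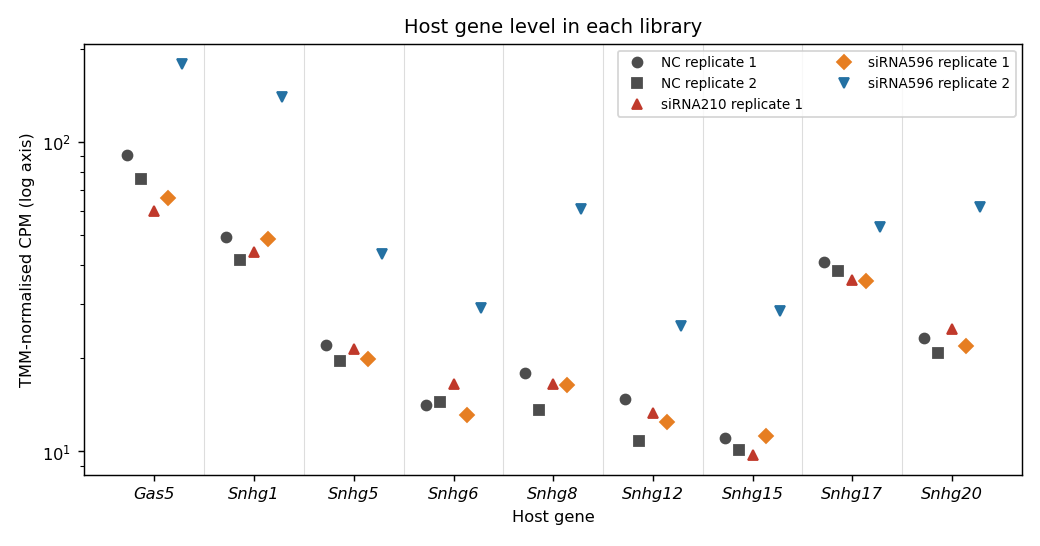
TMM-normalised CPM (y axis, log scale) of the 9 detected host genes (x axis) in each of the 5 libraries, 1 point per library. The Gas5 points of siRNA210 (59.7) and siRNA596 replicate 1 (65.9) lie below both NC points (76.0 and 90.4), and the library labelled siRNA596 replicate 2 has the highest point for every gene.

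Set against its relatives within each library, Gas5 was lower in both KD libraries of the comparison. The reads on the 9 detected hosts numbered 8658 to 9979 in the 4 libraries and 16366 in the library labelled siRNA596 replicate 2. Gas5 took 31.9% of them in NC replicate 1 (95% exact binomial interval 30.9 to 32.8%) and 31.0% in NC replicate 2 (30.1 to 32.0%). It took 24.6% in siRNA210 replicate 1 (23.7 to 25.6%) and 26.9% in siRNA596 replicate 1 (25.9 to 27.8%).

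The NC intervals overlapped each other and neither overlapped a KD interval; these intervals cover counting error only. In the library labelled siRNA596 replicate 2, where Gas5 had its highest CPM, the share was 28.9% (28.2 to 29.6%), below both NC shares and above both KD shares. The same was measured as log2 CPM of Gas5 minus the mean log2 CPM of the other 8 hosts, which gave 2.08 and 2.04 for NC, 1.55 for siRNA210 and 1.74 for siRNA596 replicate 1. The KD and NC groups did not overlap.

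The difference, KD minus NC, was -0.42 on the log2 scale (1.65 ± 0.14 against 2.06 ± 0.03, SD, n = 2 each), so that relative to the other hosts KD held 75.0% of the NC level of Gas5. The two-sided exact permutation test gave P = 0.33, the smallest that 2 against 2 libraries allow. The median of the other hosts as the reference gave -0.41 and their summed CPM -0.40.

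With all 5 libraries the difference was -0.32, with 3 of 3 KD libraries below both NC libraries (two-sided exact permutation P = 0.2, the smallest that 3 against 2 allow). The value for the library labelled siRNA596 replicate 2 depended on gene length. It stood at -0.14 relative to the NC mean, and at -0.13 after the trend of that library with median transcript length was removed, but at 0.21 after the trend with all exonic bases was removed, where Gas5 was then higher than in NC. The other hosts, each set against the rest (Gas5 included), ran from -0.92 (Snhg17) to 0.81 (Snhg8) in that library. The -0.14 of Gas5 thus lay well inside the spread among hosts. In siRNA210 and siRNA596 replicate 1 the values of Gas5 were -0.51 and -0.32, and those of the other hosts ran from -0.14 (Snhg17) to 0.26 (Snhg6). All 3 KD libraries lay below both NC libraries for Gas5 and Snhg17 and above both for Snhg8 and Snhg20. Because the rest of each other host holds Gas5, a relative fall of Gas5 by itself raises the values of the other hosts. By CPM neither Snhg8 nor Snhg20 had both KD libraries of the comparison above both NC libraries. Snhg8 stood at 16.49 and 16.41 in KD against 17.91 and 13.61 in NC. Snhg20 stood at 24.91 and 21.97 in KD against 23.2 and 20.78 in NC. Values with Gas5 left out of the rest are not given here. No rise of these 2 hosts is therefore read from this measure, and it has no share over all genes.

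**Figure D4:**
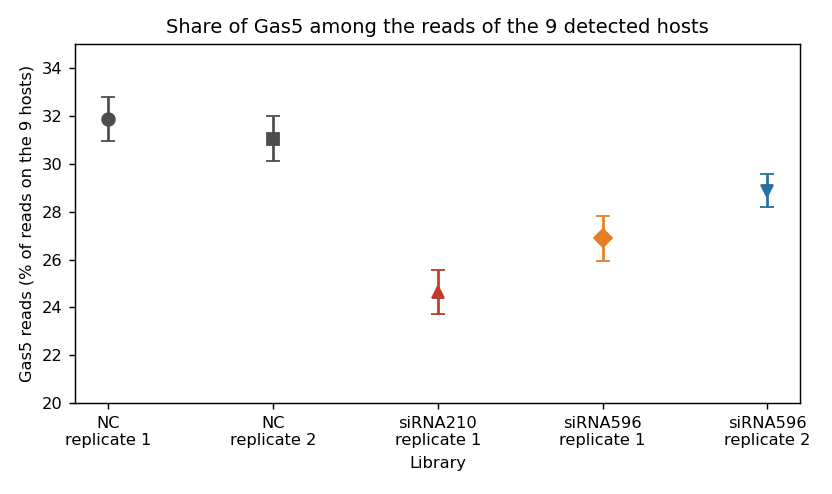
Share of Gas5 among the reads counted on the 9 detected hosts (y axis, percent, from 20 to 35) in each library (x axis), with 95% exact binomial intervals for counting error. The NC libraries lie at 31.9 and 31.0%, siRNA210 replicate 1 at 24.6% and siRNA596 replicate 1 at 26.9%, and the library labelled siRNA596 replicate 2 between them at 28.9%.

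In the library labelled siRNA596 replicate 2 every detected host was above both NC libraries, as were 42.8% of the 16142 genes tested. Snhg8 was 1.94 above the NC mean on the log2 scale, with 1601 counts, and Snhg1 1.62 above it, with 3682 counts. Snhg20, Snhg15, Gas5, Snhg5, Snhg6 and Snhg12 followed at 1.48, 1.43, 1.11, 1.06, 1.03 and 0.99, with 1624, 750, 4727, 1145, 767 and 673 counts. Snhg17 was the least raised, at 0.42 with 1397 counts, fewer raw counts than in either NC library.

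Of the 9 hosts 7 were over 2-fold above the NC mean, and so were 17.0% of all genes; the median over 16142 genes was -0.07. The other 8 hosts had a median of 1.24, and 4 of them were further above NC than Gas5. As this is 1 library, these values carry no test.

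The length of a gene moved with its ratio in this library. Across 16127 genes the rank correlation of the log2 ratio with the median transcript length was -0.34, and it was -0.04 for siRNA210 replicate 1 and 0.01 for siRNA596 replicate 1; all 3 share the NC mean, and genes are not independent replicates. Every detected host has a median transcript length of 528 (Snhg8) to 1046 bases (Snhg17), below the median of 1339 over these genes. Within the hosts the shortest, Snhg8, had the highest ratio (1.94), and the longest, Snhg17, the lowest (0.42). The order between them did not follow length throughout. Snhg6, the second shortest at 559 bases, had a ratio of 1.03, slightly below the 1.06 of Snhg5 at 832 bases. With the trend with transcript length removed, all 9 hosts were still above NC, by 0.15 (Snhg17) to 1.34 (Snhg8), and Gas5 by 0.69 with 6 of the other 8 further above it. With the trend with all exonic bases removed the range was 0.29 to 1.31, and Gas5 stood at 1.01 with 3 of 8 above it. The part of transcript length in these values beyond the 2 trends was not tested.

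**Figure D5:**
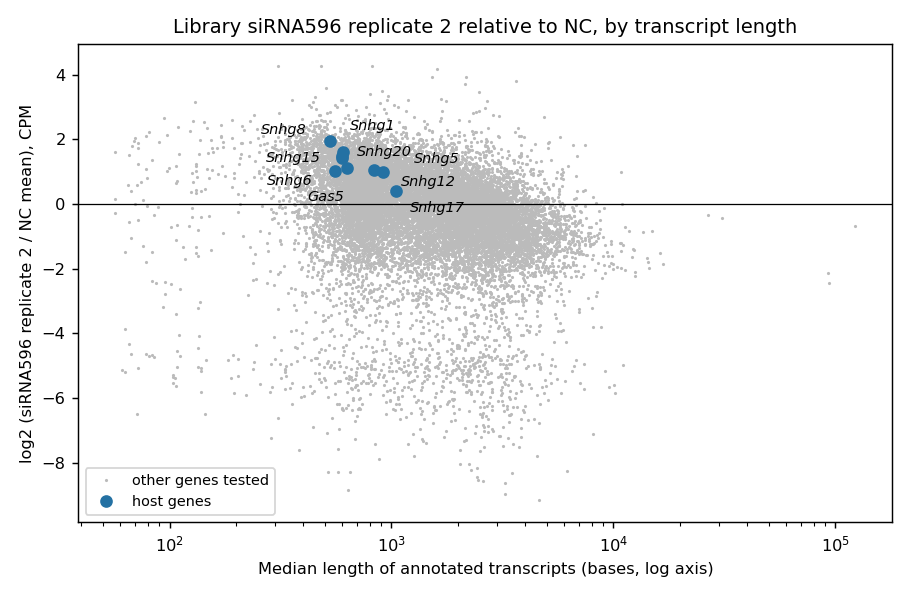
Log2 ratio of CPM in the library labelled siRNA596 replicate 2 to the NC mean (y axis) against the median length of a gene's annotated transcripts (x axis, log scale) for 16127 genes, with the 9 detected hosts named. The hosts lie between 528 and 1046 bases, all above 0, from 0.42 for Snhg17 to 1.94 for Snhg8.

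The machinery around the hosts was read from lists of genes. Of the 8 core proteins of snoRNPs 1 had an unadjusted P under 0.05, as 3.3% of all genes did. This was Nop58, a box C/D core protein, which had 5720 and 6553 counts in NC against 4717 and 5433 in KD. Its groups did not overlap, and its log2 fold change was -0.24 (SE 0.09, unadjusted P = 0.0299, adjusted P = 0.967, edgeR). Nop56, its partner in the same particle, had 7272 and 8264 counts in NC against 6499 and 6919 in KD, with a log2 fold change of -0.17 (SE 0.08, unadjusted P = 0.0597, edgeR). Dkc1, the pseudouridine synthase dyskerin, had 2287 and 3341 counts in NC against 2171 and 2439 in KD, so its groups overlapped, with a log2 fold change of -0.24 (SE 0.13).

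Of these 8 genes 2 were above 0, where 7850 of all 15867 genes tested were. The median log2 fold change of the 8 was -0.16 beside -0.00230 over all genes. None of the 9 snoRNP assembly factors had an unadjusted P under 0.05, with a median of -0.03 and a range of -0.23 (Znhit6) to 0.15 (Rpap3). None of the 14 nonsense-mediated decay factors did either, and their median was -0.03, from -0.13 for the kinase Smg1 to 0.15 for the endonuclease Smg6. The 10 mRNAs with a 5′TOP start outside the ribosomal proteins had a median of 0.05, with 8 above 0 and none with an unadjusted P under 0.05. Of these Eef1a1, the elongation factor that brings aminoacyl-tRNA to the ribosome, had the largest value, 0.11 (SE 0.08).

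Of 13 other lncRNA hosts listed, 10 were in the table and 6 passed the filter, with a median of 0.02 and none with an unadjusted P under 0.05. Zfas1, the most abundant of them in reads, had 1155 and 921 counts in NC against 1046 and 927 in KD. Epb41l4aos had the lowest value, -0.32 (SE 0.27), and Snhg18 the highest, 0.37 (SE 0.28). Of the 259 protein-coding genes that hold a snoRNA gene on their strand 212 were tested, of which 1 was higher and 8 were lower at an unadjusted P under 0.05, with a median of -0.00224. Over all genes tested 1.75% were higher and 1.55% lower by that rule. Of the 8, Rc3h2, an RNA-binding ubiquitin ligase, had the smallest P, with 2831 and 3129 counts in NC, 2372 and 2365 in KD, and a log2 fold change of -0.29 (SE 0.08, unadjusted P = 0.00575, adjusted P = 0.967, edgeR).

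In the library labelled siRNA596 replicate 2 the same lists ranged widely. The median log2 ratio to NC was 1.34 for the 6 other lncRNA hosts, 1.43 for the 8 snoRNP proteins and 1.07 for the 10 5′TOP mRNAs. It was 0.77 for the assembly factors, 0.10 for the decay factors and -0.07 for the 212 protein-coding hosts. Smg1, one of the decay factors, had 1471 counts there against 8871 and 10976 in NC.

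By the shape of the profile over the 5 libraries, the genes most like Gas5 were not hosts. Likeness was the root mean square difference of log2 CPM, each gene centred on its own mean, over the 9572 genes whose mean reached 10 CPM. The 5 nearest were Cela1 (0.11), Hgh1 (0.12), Hlx (0.12), Ndufab1 (0.12) and Coa7 (0.12). Cela1, an elastase, had 320 and 339 counts in NC, then 239 (siRNA210), 243 (siRNA596 replicate 1) and 583 (the library labelled siRNA596 replicate 2). Ndufab1, the acyl carrier protein of mitochondria, had 1252 and 1256 in NC, then 1014, 1116 and 2341.

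Among the hosts Snhg15 was nearest to Gas5, at rank 97 (0.18), and Snhg17 farthest, at rank 2441 (0.35). Over the 4 libraries alone the order turned, with Snhg17 at rank 192 and Snhg15 at rank 1460. The 5-library order thus rests on the library labelled siRNA596 replicate 2.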

How the data were processed

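Whole-number read counts per gene were deposited by the authors, who aligned reads to GRCm38 with HISAT2 2.1.0, sorted with SAMtools 1.7 and counted with featureCounts 2.0.1 (versions from the submitters' processing notes). The signal column deposited by the authors, mean counts over libraries after division by DESeq2 1.26.0 size factors, was used only to see which libraries it held. The fold changes and P values beside it were not used. Counts were tested with edgeR 4.0.16 in R 4.3.3 (TMM, filterByExpr, quasi-likelihood test, Benjamini-Hochberg adjustment over all genes), after a check on simulated counts; DESeq2 1.42.0 was an alternative. Totals were 30660265 to 36492134 counts. Identifiers were matched to GENCODE M21 on GRCm38 (99.5% of 55487). Length trends were removed per library by lowess (span 0.3).

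The methods of the study say that experiments were repeated, but not whether these libraries came from separate cultures. If they did not, P values measure only a spread between libraries that may be technical. The members and lists were chosen with earlier results of these data known. All 10 hosts were named in every library; list examples were up to 3 genes with the smallest P, the genes nearest Gas5 were the 5 with the most similar profile, and overlapping genes were named. Named beyond this rule, after their values were seen, were Zfas1 and the single markers. Since Snhg3 had no count, Gas5 was set against the other 8 hosts, not 9.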

Additional observations from a re-analysis of the deposited data

Results flagged for a closer look

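The library labelled siRNA596 replicate 2, which is outside the 4-library comparison, held a signal above both NC libraries for all 9 detected hosts, where 42.8% of all genes tested lay above both. Its CPM was 179.0 for Gas5, 139.5 for Snhg1, 43.4 for Snhg5, 29.1 for Snhg6, 60.6 for Snhg8, 25.5 for Snhg12, 28.4 for Snhg15, 52.9 for Snhg17 and 61.5 for Snhg20. It is 1 library, so this carries no test, and the direction for Gas5 by CPM is opposite to its label. Relative to the other hosts, Gas5 in that library was -0.14 from the NC mean, and 0.21 with the exonic length trend removed. Shorter transcripts had higher ratios across that library, and the part of transcript length in these values beyond the trends removed was not tested.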

How the results depend on the processing

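Of 14 settings other than the reported fit, the 9 that left out the library labelled siRNA596 replicate 2 kept Gas5 lower in KD. Leaving out 1 of the 4 libraries gave -0.53 to -0.28, and without siRNA210 replicate 1 the unadjusted P of -0.34 was above 0.05 and 0 hosts were called (range 0 to 1). Settings with the library labelled siRNA596 replicate 2 turned Gas5 positive: 0.29 with all 5 libraries, 0.22 with the exonic length trend removed and 0.0524 with the transcript length trend removed (this last, and both trends for Gas5 relative to its relatives, were chosen after seeing the data). They called 0 hosts. Gas5 relative to the other hosts was -0.51 to -0.32 on leaving out 1 library and -0.21 with the exonic trend removed. The causes were not tested beyond the libraries each setting holds.

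Replicate numbers in the labels are shared by siRNA596 and NC, with nothing saying that they mark a pair, and the correlation of same-numbered deviations was 0.08 over 16142 genes. In siRNA596 against NC, Gas5 was 0.39 with the replicate block and 0.56 without it, and 0 hosts were called either way. Genes meeting the study's criteria numbered 426 with the block and 41 without; 41 also had an unadjusted P under 0.05 without it.

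Over the other 8 hosts, 26 of 112 values had the opposite sign to the reported one and none had an unadjusted P under 0.05 (smallest 0.051). The values of opposite sign in the order all 5 libraries, replicate block, no block, exonic trend and transcript trend were 0.44, 0.50, 0.61, 0.13 and 0.28 for Snhg5 and 0.63, 0.76, 0.91, 0.26 and 0.38 for Snhg15. For Snhg17 the first 4 were 0.0669, 0.14, 0.17 and 0.29, and for Snhg12 library size alone gave -0.00880. Leaving out 1 library gave -0.0876 to 0.16 for Snhg1, -0.0945 to 0.0751 for Snhg5, -0.12 to 0.20 for Snhg6, -0.12 to 0.27 for Snhg8, -0.20 to 0.25 for Snhg12, -0.12 to 0.0773 for Snhg15, -0.20 to -0.0956 for Snhg17 and -0.00451 to 0.18 for Snhg20.

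Against 523 genes with an unadjusted P under 0.05, all 5 libraries gave 60, no low-count filter 924, the exonic trend 61 and the transcript trend 56, and leaving out 1 library gave 170 (without siRNA210 replicate 1) to 2776 (without NC replicate 1). Against 139 by the study's criteria these settings gave 57, 282, 50 and 51, DESeq2 gave 67, a minimum of 10 counts gave 73, and leaving out 1 library gave 125 to 374. After adjustment DESeq2 called 1 gene and leaving out 1 library 0 to 1. Each detected host had 348 counts or more in every library.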
